A study of Homo sapiens with 8 samples.

Results

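The genes described here are 30 genes of DNA replication, measured in HSC39 cells after transfection of TRIM44 siRNA. They were taken by gene name and not by a measured value, but earlier results of these data were known when the list was chosen. They hold the licensing factors, the replicative helicase and its activators, the sliding clamp and its loader, polymerase and primase subunits, a flap nuclease, enzymes of nucleotide supply, and E2F1 with the E-type cyclins. Each was represented by 1 probe set (the set of array probes that reads 1 transcript region), so the 30 members are 30 of the 19158 probe sets with exactly 1 gene symbol, which stand for 18404 genes. HSC39 is an established human signet ring cell line of gastric carcinoma. Cells were kept in RPMI with 10% fetal calf serum. The control group received the AllStars negative siRNA (4 arrays), and 2 further groups received TRIM44 siRNA 7 or TRIM44 siRNA 9 (2 arrays each). The protocol gives 100 nM siRNA for 48 hours, and RNA of each sample was hybridised to 1 whole-transcript array. All 8 samples were transfected, so no array shows cells without siRNA, and each reagent was given at 1 dose and 1 time. The shared protocol text mentions TRIM44 siRNA for negative samples as well, and the series text calls the controls untreated; groups follow the sample labels. The series text counts 4 biological replicates per condition. Nothing else says that the arrays came from separate cultures, and otherwise the p-values measure only the spread between these arrays.

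A cell copies its genome once per division. In G1, CDC6 and CDT1 help to load the ring of MCM2 to MCM7 onto origins, and in S phase the ring becomes an active helicase when CDC45 and the GINS complex join it. Polymerase alpha with primase then starts each strand, the RFC clamp loader places the PCNA ring that holds the later polymerases, and FEN1 trims Okazaki fragments. Ribonucleotide reductase and thymidylate synthase supply the deoxynucleotides. Many of these genes are classic targets of the E2F transcription factors, which cyclin E kinase activity helps to release from the retinoblastoma protein, and their summed activity marks proliferating cells such as carcinoma lines.

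The targeted gene and the cell type were checked first. TRIM44 had a mean log2 level of 11.90 ± 0.11 (SD, n = 4) in the negative group. The mean was 11.06 ± 0.30 (SD, n = 2) for siRNA 7 and 11.12 ± 0.03 (SD, n = 2) for siRNA 9. On the log2 scale a difference of 1 is a change of 2-fold. Over both reagents TRIM44 fell by 0.81 (SE 0.10, limma adjusted p = 0.0449), to 57.0% of the negative level (95% interval 49.1% to 66.1%), and an exact 2-sided permutation test over 70 assignments gave p = 0.0286, the smallest it allows. This call was lost when any 1 array other than siRNA 7 array 2 was left out, with adjusted p from 0.0587 to 0.291. TRIM44 differed by -0.06 between siRNA 7 and siRNA 9 (95% interval -0.36 to 0.24). All 10 epithelial markers lay above the median of all probe sets by mean level, and 0 of 9 leukocyte and endothelial markers lay above the median. Of 10 mesenchymal and fibroblast markers 2, COL1A1 and LUM, lay above the median. No marker of these lists passed the test in any comparison. Correlation between arrays ran from 0.991 to 0.997 over all probe sets.

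Promoters are shown for the members on which the results below turn. These are GINS1, the member that passed the test, and GINS2, a subunit of the same complex that did not. PCNA, whose siRNA 9 arrays lay above the negative arrays, and POLA2, whose TRIM44 siRNA arrays all lay below them, are also shown. MCM6 is shown because, counting both strands, it had the most matches to E2F letters of the members with a promoter entry. The sequences are the 250 bases before an annotated start site in RefSeq (GRCh38.p14), read 5′ to 3′ on the strand of the gene. Matches to E2F letters are in capitals. The search used TTTGGCGC, TTTCGCGC, TTTCCCGC and TTTGCCGC on both strands. The windows are chr20:25407423-25407672 (plus strand) for GINS1, chr16:85688955-85689204 (minus) for GINS2, chr2:135876444-135876693 (minus) for MCM6, chr20:5126623-5126872 (minus) for PCNA, and chr11:65261712-65261961 (plus) for POLA2.
GINS1: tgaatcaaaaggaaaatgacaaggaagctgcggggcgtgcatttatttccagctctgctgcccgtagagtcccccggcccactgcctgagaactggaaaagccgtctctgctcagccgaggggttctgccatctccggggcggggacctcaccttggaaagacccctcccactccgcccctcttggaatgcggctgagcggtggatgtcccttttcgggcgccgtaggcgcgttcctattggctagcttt
GINS2: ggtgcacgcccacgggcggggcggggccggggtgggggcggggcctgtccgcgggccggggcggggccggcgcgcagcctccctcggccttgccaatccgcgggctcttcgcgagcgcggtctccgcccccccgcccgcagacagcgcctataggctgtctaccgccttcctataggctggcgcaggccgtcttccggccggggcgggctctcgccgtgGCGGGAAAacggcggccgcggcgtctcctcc
MCM6: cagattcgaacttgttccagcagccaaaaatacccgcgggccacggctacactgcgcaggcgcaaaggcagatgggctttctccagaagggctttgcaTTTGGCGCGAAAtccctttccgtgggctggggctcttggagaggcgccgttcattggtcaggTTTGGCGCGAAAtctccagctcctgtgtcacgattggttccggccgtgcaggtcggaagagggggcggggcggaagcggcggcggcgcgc
PCNA: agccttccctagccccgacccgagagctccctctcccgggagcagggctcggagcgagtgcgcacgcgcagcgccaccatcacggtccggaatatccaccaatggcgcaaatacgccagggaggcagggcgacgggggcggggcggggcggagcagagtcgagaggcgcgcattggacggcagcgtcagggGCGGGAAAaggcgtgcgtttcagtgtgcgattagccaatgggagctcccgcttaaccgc
POLA2: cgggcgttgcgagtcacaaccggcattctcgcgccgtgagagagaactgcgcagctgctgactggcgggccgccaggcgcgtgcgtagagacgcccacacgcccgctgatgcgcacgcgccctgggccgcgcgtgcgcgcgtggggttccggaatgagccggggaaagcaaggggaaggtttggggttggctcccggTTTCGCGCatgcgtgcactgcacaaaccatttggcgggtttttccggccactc
The GINS1 window held no match to these letters, which says only that the letters are not in these 250 bases. GINS2 held 1 match at -31 to -24, counted from the start site, PCNA held 1 at -59 to -52, and POLA2 held 1 at -53 to -46. PCNA has a further annotated start site, whose window is not printed and held no match. MCM6 held 4 matches in 2 overlapping pairs, at -152 to -141 and -90 to -79, each pair with 1 match on each strand. MCM7 and E2F1, not printed, held 2 matches each that did not overlap. A match is a run of letters and was not measured as a bound site.

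Of the 30 members, 26 matched a RefSeq promoter by symbol; MCM4, MCM5, GINS4 and CCNE2 did not. E2F letters stood before the start of 11 of these 26 genes (42.3%), which were CDT1, MCM3, MCM6, MCM7, GINS2, PCNA, RFC3, POLA1, POLA2, TYMS and E2F1. Over all 27305 genes with an entry, noncoding ones included, 928 held them (3.40%). Counted by promoter, 11 of the 32 member promoters (34.4%) and 979 of all 35116 (2.79%) did. The letters CCAAT, a box found in many cell cycle promoters, stood before 15 of the 26 genes (57.7%), against 37.0% of all genes. The letters TTTGAA, those of the cell cycle homology region that is best known from mitotic genes, stood before 1 of the 26 (3.85%), against 16.1% of all genes. Genes with and without E2F letters thus both occur in the list, GINS1 among those without.

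All 30 members were read well up the range of the arrays. The mean level over the 8 arrays put all 30 above the median of all probe sets, at a median percentile of 88.3, with the lowest at 63.7. Negative arrays varied little for these genes: the SD over the 4 negative arrays had a median of 0.09, from 0.04 to 0.29 for CCNE2, and a median of 0.13 over all probe sets. The 2 arrays of siRNA 7 lay apart by a median of 0.12 and at most by 0.53, for CCNE1. The 2 arrays of siRNA 9 lay apart by a median of 0.09 and at most by 0.34, for RRM2. Negative array 2 was the highest of the negative arrays for 15 members and negative array 1 the lowest for 12. Relative to the negative mean, the median over the members was -0.03, 0.04, 0.00 and -0.02 on the negative arrays, -0.07 and -0.02 on the siRNA 7 arrays, and 0.04 and 0.01 on the siRNA 9 arrays.

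**Figure D1:**
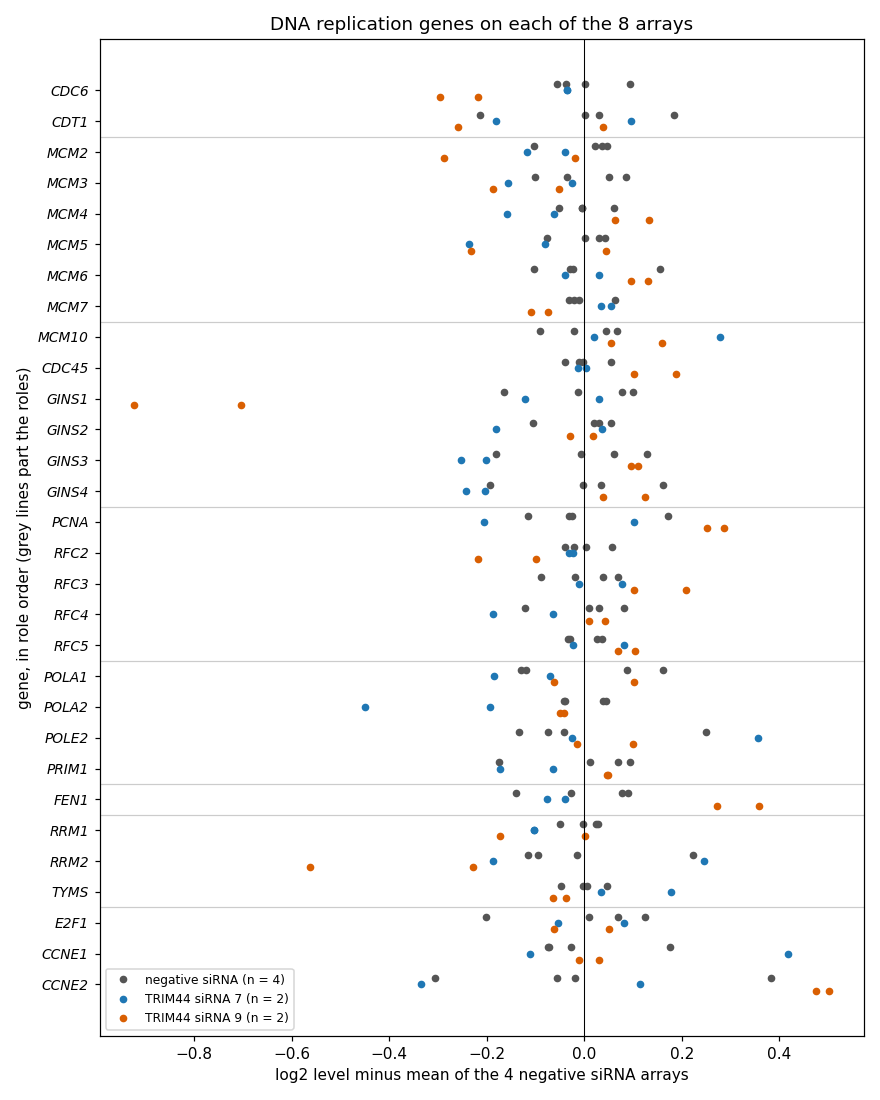
Log2 level of the 30 members on each of the 8 arrays minus the mean of the 4 negative siRNA arrays of the same gene (horizontal); rows are genes in role order, each point is an array, and colour gives the group (4 negative, 2 siRNA 7, 2 siRNA 9 arrays). The 2 siRNA 9 points of GINS1 are the farthest to the left.

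GINS1 was the only member to pass the test in any comparison. It was lower with siRNA 9 and not called with siRNA 7, and the other 29 members passed in none of the 4 comparisons. Against negative siRNA, both reagents together gave 0 of 30 members (limma, adjusted p under 0.05), where 1 of 19158 probe sets passed (0.00522%); GINS1 alone had an unadjusted p under 0.05, against 5.43% of all probe sets. siRNA 7 gave 0 of 30, where 0.0679% of all passed; POLA2 and GINS3, both lower, had an unadjusted p under 0.05, against 7.46% of all. siRNA 9 gave 1 of 30, where 0.924% of all passed, and 6 members had an unadjusted p under 0.05, against 13.6% of all. Between the reagents, 1 of 30 passed, where 2.23% of all did, and 9 members had an unadjusted p under 0.05, against 15.7% of all. Counts of 0 or 1 among 30 members are too few to set apart from these shares. The comparison of the reagents with each other uses the same siRNA 9 arrays as that of siRNA 9 with negative siRNA, so the 2 calls of GINS1 rest on shared arrays.

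Differences of the members lay on both sides of 0. The median difference over the 30 was -0.04 for both reagents together, with 12 above 0 and 18 below. Over all probe sets the median was 0.01, and 53.75% were above 0. For siRNA 7 the members' median was -0.05, with 9 above and 21 below, beside 0.00 over all, of which 49.3% were above 0. For siRNA 9 it was 0.01, with 16 above and 14 below, beside 0.02 over all, of which 56.5% were above 0. The 95% intervals lay wholly within ±0.5, a change of 1.41-fold, for 29 of 30 members with siRNA 7 and 25 of 30 with siRNA 9, against 90.2% and 85.2% of all probe sets. For most members, changes larger than this in either direction thus lay outside the interval. Smaller differences did not pass the adjusted threshold. Some of these intervals left out 0, such as those of CDC6 with siRNA 9 (-0.45 to -0.07) and GINS3 with siRNA 7 (-0.45 to -0.01). The SE of a member had a median of 0.10 in both comparisons.

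Arrays that do not overlap between groups were counted next. With siRNA 9, 7 members had both arrays above all 4 negative arrays (MCM4, CDC45, PCNA, RFC3, RFC5, FEN1, CCNE2), where 13.4% of all probe sets did so, and 6 had both below (CDC6, MCM7, GINS1, RFC2, POLA2, RRM2), where 9.23% did. For siRNA 7, 0 members had both arrays above all negatives, where 6.38% of all probe sets did, and 6 had both below (MCM4, MCM5, GINS3, GINS4, POLA2, RRM1), where 7.99% did. All 4 TRIM44 siRNA arrays lay above the negative arrays for 0 members, where 1.59% of all did. They lay below for 1, POLA2, where 1.26% of all did. MCM4 was on opposite sides with the 2 reagents.

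The result on the helicase activators centred on 1 subunit of the GINS complex. GINS is a ring of GINS1 to GINS4 that binds the MCM ring and CDC45 at the active fork, and GINS1, also known as PSF1, is needed for it. The log2 level of GINS1 was 10.19, 10.43, 10.34 and 10.46 on the negative arrays, 10.24 and 10.39 on the siRNA 7 arrays, and 9.43 and 9.65 on the siRNA 9 arrays. The siRNA 9 arrays lay below the other 6, and both siRNA 7 arrays lay inside the negative range. GINS1 fell by 0.81 with siRNA 9 (SE 0.11, limma adjusted p = 0.00751), to 56.9% of the negative level (95% interval 48.3% to 67.1%). By p-value it ranked 20 of 19158 probe sets in that comparison. With siRNA 7 the difference was -0.05 (95% interval -0.28 to 0.19, adjusted p = 0.995). Tested against each other, siRNA 7 was 0.77 above siRNA 9 (SE 0.13, limma adjusted p = 0.0142), or 170% of it (95% interval 141% to 206%). TRIM44 itself stood at like levels with the 2 reagents, as given above, and over both reagents together GINS1 differed by -0.43 (adjusted p = 0.903).

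The call of GINS1 with siRNA 9 needs both siRNA 9 arrays. Without siRNA 9 array 1 the difference was -0.70 (limma adjusted p = 0.221), and without array 2 it was -0.92 (adjusted p = 0.0884), the remaining array being given the spread of the other groups. It was also lost when all 32321 probe sets of the table entered the adjustment (adjusted p = 0.0572). The difference from siRNA 7 was likewise not called without siRNA 9 array 1 (0.66, adjusted p = 0.192), without siRNA 9 array 2 (0.88, adjusted p = 0.0933), without siRNA 7 array 2 (0.69, adjusted p = 0.0955) or over all probe sets (adjusted p = 0.0698).

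The other GINS subunits were called in no comparison. GINS2 read 11.39, 11.40, 11.26 and 11.42 on the negative arrays, 11.18 and 11.40 on the siRNA 7 arrays, and 11.38 and 11.34 on the siRNA 9 arrays. GINS3 read 8.80, 8.49, 8.66 and 8.73 with negative siRNA, 8.42 and 8.47 with siRNA 7, and 8.78 and 8.77 with siRNA 9. GINS4 read 8.34, 8.53, 8.57 and 8.69 with negative siRNA, 8.29 and 8.33 with siRNA 7, and 8.57 and 8.66 with siRNA 9. The siRNA 9 arrays of all 3 lay inside the negative range, whereas both siRNA 7 arrays of GINS3 and GINS4 lay below it. With siRNA 9 the differences were -0.01 for GINS2 (95% interval -0.22 to 0.20), 0.10 for GINS3 (-0.12 to 0.32) and 0.08 for GINS4 (-0.15 to 0.31), so these intervals leave out a drop of the size measured for GINS1. With siRNA 7 the differences of -0.23 for GINS3 (limma adjusted p = 0.648) and -0.22 for GINS4 (adjusted p = 0.693) were not called.

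**Figure D2:**
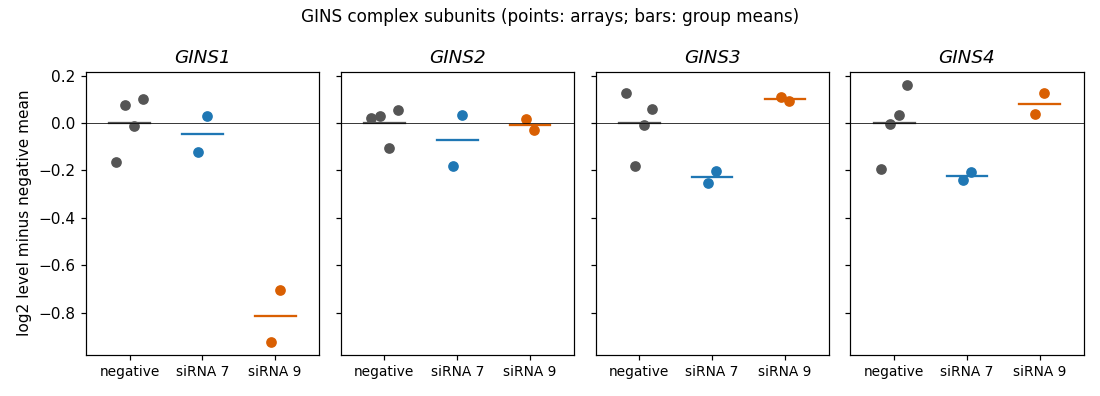
Log2 level of GINS1, GINS2, GINS3 and GINS4 minus the negative mean of the same gene (vertical), by siRNA group (4 negative, 2 siRNA 7, 2 siRNA 9 arrays); points are arrays and bars are group means. The siRNA 9 mean of GINS1 lies at -0.81, with both arrays below all its other points, and the siRNA 9 points of the other 3 subunits lie within the negative range.

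Set within each array, the GINS1 level minus the mean of the other 3 subunits, relative to its negative mean, was -0.15, 0.13, 0.01 and 0.01 on the negative arrays and 0.10 and 0.15 on the siRNA 7 arrays. On the siRNA 9 arrays it was -0.98 and -0.77. Both siRNA 9 values lay below the other 6; GINS1 was taken for this comparison because it had passed the test, so it is a description. The 2 remaining activators were near their negative levels. MCM10, which helps the helicase to become active, differed by 0.15 with siRNA 7 and 0.11 with siRNA 9, and CDC45 by 0.00 and 0.15; neither was called. Over the 6 activators the median difference was -0.06 with siRNA 7 and 0.09 with siRNA 9.

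The licensing factors were not called. CDC6, the ATPase that helps to load the MCM ring, read 10.82, 10.96, 10.86 and 10.81 with negative siRNA, 10.83 and 10.83 with siRNA 7, and 10.64 and 10.57 with siRNA 9. Both siRNA 9 arrays lay below the negative range, and both siRNA 7 arrays lay inside it. The difference was -0.26 with siRNA 9 (limma adjusted p = 0.209) and -0.04 with siRNA 7. CDT1, its partner in loading, varied by more between negative arrays (10.22 to 10.62) than between groups, with differences of -0.04 for siRNA 7 and -0.11 for siRNA 9.

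The 6 subunits of the MCM ring stayed within 0.16 of their negative means in both reagent comparisons, and none was called. With siRNA 7 the differences were -0.08 for MCM2, -0.09 for MCM3, -0.11 for MCM4, -0.16 for MCM5, -0.01 for MCM6 and 0.04 for MCM7. With siRNA 9 they were -0.15, -0.12, 0.10, -0.09, 0.11 and -0.09 in the same order. The median over the ring was -0.08 for siRNA 7, with 5 of 6 subunits below 0, and -0.09 for siRNA 9, with 4 of 6 below 0. MCM5 had the smallest p of the subunits with both reagents together. It read 10.49, 10.37, 10.48 and 10.45 on the negative arrays, 10.37 and 10.21 on the siRNA 7 arrays, and 10.49 and 10.21 on the siRNA 9 arrays. For MCM5, array 2 of each reagent lay below the negative range, siRNA 7 array 1 lay only just below it, and siRNA 9 array 1 only just above it. MCM2 read 10.55, 10.40, 10.54 and 10.53 with negative siRNA, 10.46 and 10.39 with siRNA 7, and 10.49 and 10.22 with siRNA 9. The low values of MCM2 came from array 2 of each reagent and from negative array 2. The MCM6 promoter, with its 4 E2F matches printed above, thus belonged to a gene whose level differed by -0.01 with siRNA 7 (95% interval -0.22 to 0.20) and 0.11 with siRNA 9 (-0.10 to 0.32).

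PCNA and its loader were not called. PCNA, the ring that tethers polymerases to DNA, read 9.89, 10.09, 9.80 and 9.89 with negative siRNA, 9.71 and 10.02 with siRNA 7, and 10.17 and 10.20 with siRNA 9. The siRNA 9 arrays were the highest 2 of the 8, and the siRNA 7 arrays lay on either side of the negative mean. The difference was 0.27 with siRNA 9 (95% interval 0.02 to 0.51, limma adjusted p = 0.318) and -0.05 with siRNA 7. Among the small loader subunits, RFC2 differed by -0.16 with siRNA 9, RFC3 by 0.16, RFC4 by 0.03 and RFC5 by 0.09. RFC2 read 10.80, 10.74, 10.70 and 10.72 with negative siRNA, 10.71 and 10.72 with siRNA 7, and 10.64 and 10.52 with siRNA 9. RFC4 read 10.47, 10.68, 10.62 and 10.60 with negative siRNA, 10.53 and 10.41 with siRNA 7, and 10.64 and 10.60 with siRNA 9. With siRNA 9, RFC2 was thus below the negative range while RFC3 and RFC5 were above it, so the subunits of the loader lay on both sides.

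POLA2, the accessory subunit of polymerase alpha, was the member with the smallest p for siRNA 7. It read 8.47, 8.56, 8.47 and 8.55 with negative siRNA, 8.06 and 8.32 with siRNA 7, and 8.46 and 8.47 with siRNA 9. Both siRNA 7 arrays lay below all others, and the siRNA 9 arrays lay below the lowest negative array by less than 0.01. The difference was -0.32 with siRNA 7 (SE 0.10, limma adjusted p = 0.346) and -0.05 with siRNA 9, so it did not pass. POLA1, the catalytic subunit of the same polymerase, differed by -0.13 with siRNA 7 and 0.02 with siRNA 9. PRIM1, the catalytic subunit of primase, read 10.01, 10.09, 10.06 and 9.82 with negative siRNA, 9.93 and 9.82 with siRNA 7, and 10.04 and 10.04 with siRNA 9. POLE2, a subunit of the leading-strand polymerase epsilon, differed by 0.17 and 0.04. FEN1, the flap nuclease, read 9.09, 9.32, 9.20 and 9.31 with negative siRNA, 9.15 and 9.19 with siRNA 7, and 9.50 and 9.59 with siRNA 9. FEN1 on the siRNA 9 arrays lay above the negative range, and both siRNA 7 arrays lay inside it. The difference was 0.32 with siRNA 9 (SE 0.10, limma adjusted p = 0.162), and -0.37 between siRNA 7 and siRNA 9 (adjusted p = 0.110); neither was called.

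**Figure D3:**
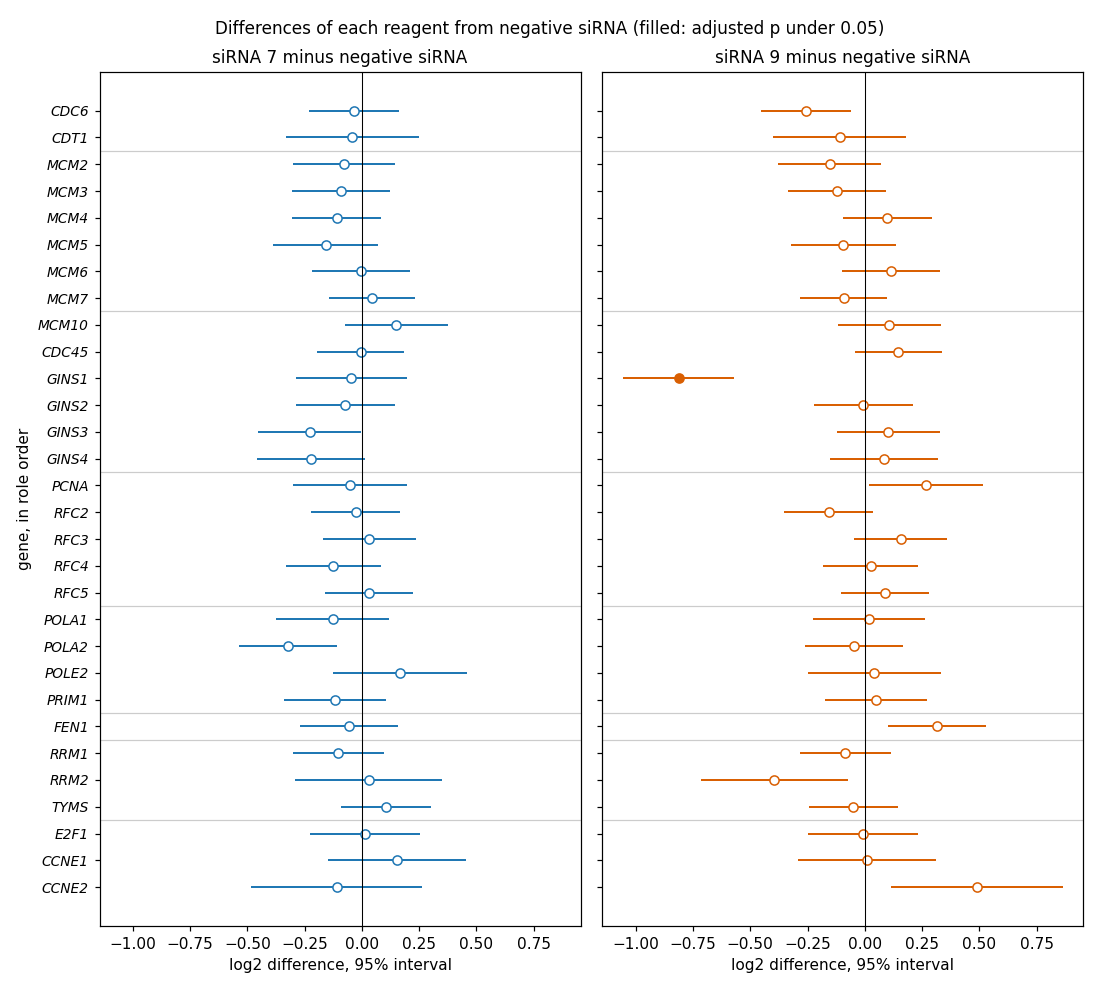
Log2 difference from negative siRNA of the 30 members for siRNA 7 and for siRNA 9, with 95% intervals of the limma fit; rows are genes grouped by role, and filled points pass an adjusted p of 0.05. Only GINS1 with siRNA 9, at -0.81, is filled, and the other points lie between -0.40 and 0.49.

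The enzymes of nucleotide supply were not called. RRM2, the S-phase subunit of ribonucleotide reductase, read 9.11, 9.45, 9.21 and 9.13 with negative siRNA, 9.04 and 9.47 with siRNA 7, and 8.66 and 9.00 with siRNA 9. The siRNA 9 arrays lay below the negative range, and the siRNA 7 arrays lay just beyond its 2 ends. The difference was -0.40 with siRNA 9 (95% interval -0.71 to -0.08, limma adjusted p = 0.243) and 0.03 with siRNA 7. RRM1, its large partner subunit, read 11.11, 11.14, 11.14 and 11.06 with negative siRNA, 11.01 and 11.01 with siRNA 7, and 10.94 and 11.11 with siRNA 9. TYMS, the thymidylate synthase, read 10.90, 10.94, 10.89 and 10.84 with negative siRNA, 10.92 and 11.07 with siRNA 7, and 10.83 and 10.85 with siRNA 9. The differences of RRM1 were -0.10 and -0.09 with siRNA 7 and siRNA 9, and those of TYMS 0.11 and -0.05.

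E2F1 and the E-type cyclins stand upstream of the other members. E2F1, the activator of S-phase genes, differed by 0.01 with siRNA 7 (95% interval -0.22 to 0.25) and -0.01 with siRNA 9 (-0.24 to 0.23). CCNE2 read 8.73, 9.42, 9.01 and 8.98 with negative siRNA, 8.70 and 9.15 with siRNA 7, and 9.54 and 9.51 with siRNA 9. It had the widest spread of any member over the negative arrays, and both siRNA 9 arrays lay just above the highest of them. The difference with siRNA 9 was 0.49 (SE 0.17, limma adjusted p = 0.215) and was not called. Without negative array 2, the high one, it was 0.62 and passed (limma adjusted p = 0.0231). In that setting 1067 of 19158 probe sets passed, against 177 with all arrays. CCNE1 read 8.53, 8.48, 8.49 and 8.73 with negative siRNA, 8.45 and 8.98 with siRNA 7, and 8.59 and 8.55 with siRNA 9, so that siRNA 7 array 2 stood alone above the rest. Set side by side, the differences with siRNA 9 were 0.49 for CCNE2 and 0.01 for CCNE1.

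Other genes of replication were taken from a list of 60 names, of which 58 matched a measured gene. They gave 1 call against negative siRNA, with siRNA 7, where 0.0679% of all probe sets passed. ASF1A, a histone chaperone that works behind the fork, read 9.64, 10.06, 9.88 and 9.83 with negative siRNA, 8.97 and 9.07 with siRNA 7, and 9.49 and 9.50 with siRNA 9. Both siRNA 7 arrays lay below all others, and both siRNA 9 arrays also lay below all negative arrays. For 1.26% of all probe sets, all 4 TRIM44 siRNA arrays lay below the negative arrays. ASF1A fell by 0.83 with siRNA 7 (SE 0.11, limma adjusted p = 0.0405), while the difference of -0.36 with siRNA 9 was not called (adjusted p = 0.176). The call with siRNA 7 was lost under 10 of the 17 alternatives tried, with adjusted p from 0.0525 to 0.262. None of the 58 passed with siRNA 9, where 0.924% of all probe sets did, or over both reagents together, where 0.00522% did (limma). Their median difference was -0.05 with siRNA 7 (22 above 0, 36 below) and 0.05 with siRNA 9 (37 above 0, 21 below). Of all probe sets, 49.3% were above 0 with siRNA 7 and 56.5% with siRNA 9. Over both reagents together, ASF1A had the smallest p of the 58, with a difference of -0.60 (limma adjusted p = 0.519), and was not called. In the other groups, the genes of smallest p included ORC6 of the origin recognition complex at 0.16 and the S-phase kinase CDK2 at 0.11. RPA2 of the single-strand binding protein at 0.20 and the p53-induced reductase subunit RRM2B at -0.23 were further ones, and none of them was called. RPA3, another subunit of the single-strand binding protein, differed by -0.18, on the other side of 0 from RPA2, and was not called either.

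Between the reagents, 1 of the 58 was called, where 2.23% of all probe sets passed. This was WDHD1, an adaptor that links the GINS-bound helicase to polymerase alpha. It read 9.10, 9.62, 9.28 and 9.18 with negative siRNA, 8.92 and 8.91 with siRNA 7, and 9.57 and 9.73 with siRNA 9. The negative range reached into the siRNA 9 values through negative array 2, and both siRNA 7 arrays lay below all others. It was lower with siRNA 7 than with siRNA 9 by a log2 difference of -0.73 (SE 0.15, limma adjusted p = 0.0333), opposite in direction to GINS1. Neither reagent differed from negative siRNA past the threshold for it. The difference between the reagents was not called over all probe sets (adjusted p = 0.123), without negative array 3 (0.0589), or without any 1 of the 4 TRIM44 siRNA arrays (0.106 to 0.252).

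Genes of G1 and S-phase control (25 of 26 measured) had no call against negative siRNA. Between the reagents E2F7, a repressor of the E2F family, read 8.21 and 8.54 with siRNA 7 and 9.03 and 8.90 with siRNA 9, beside 8.82 to 8.97 with negative siRNA. It was lower with siRNA 7 than with siRNA 9 (-0.59, limma adjusted p = 0.0333). It was the only call of the 25 between the reagents, where 2.23% of all probe sets passed. This call was lost over all probe sets (adjusted p = 0.116), without negative array 1 (0.0510) or 3 (0.0642), and without any 1 of the 4 TRIM44 siRNA arrays (0.0524 to 0.290). Of mitosis genes, which follow the replication genes in the cell cycle, 31 of 32 were measured, none was called against negative siRNA, and 3 of the 31 were higher with siRNA 7 than with siRNA 9, where 2.23% of all probe sets passed in either direction: the mitotic kinase PLK1 by 0.64 (limma adjusted p = 0.0235), the kinesin KIF20A by 0.72 (adjusted p = 0.0182) and the kinesin KIF2C by 0.50 (adjusted p = 0.0394). Both siRNA 9 arrays of each lay below all negative arrays, where 9.23% of all probe sets did so. Both siRNA 7 arrays of PLK1 and of KIF2C lay above all negative arrays, where 6.38% of all probe sets did so. For KIF20A only siRNA 7 array 2 did. All 3 calls were lost over all probe sets (adjusted p from 0.0852 to 0.118), without siRNA 7 array 2 (0.124 to 0.221) and without either siRNA 9 array (0.159 to 0.256). The calls of PLK1 and KIF2C were also lost without siRNA 7 array 1 (0.0840 and 0.0986), and that of KIF2C without negative array 1 (0.0591) or 3 (0.0734). The median of the mitosis genes was 0.07 with siRNA 7 (25 of 31 above 0) and -0.06 with siRNA 9 (13 of 31 above 0), while that of the 30 replication members was -0.05 (9 of 30) and 0.01 (16 of 30). These medians are descriptions without a test, and both reagent comparisons share the 4 negative arrays. Of all probe sets, 49.3% were above 0 with siRNA 7 and 56.5% with siRNA 9. Between the reagents the median difference, siRNA 7 minus siRNA 9, was -0.06 over the 30 members, -0.11 over the other replication genes, -0.11 over the control genes and 0.12 over the mitosis genes, beside -0.03 over all probe sets.

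**Figure D4:**
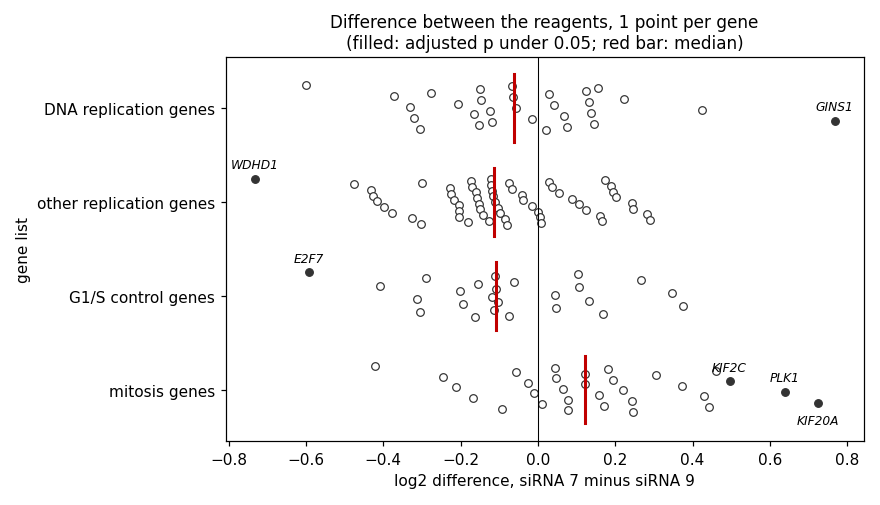
Log2 difference of siRNA 7 minus siRNA 9 (horizontal) for the replication members, the other replication genes, the G1 and S-phase control genes and the mitosis genes; each point is a gene, filled where the limma adjusted p is under 0.05, and red bars are medians. GINS1 is filled at 0.77, WDHD1 at -0.73, E2F7 at -0.59, and KIF2C, PLK1 and KIF20A between 0.50 and 0.72.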

How the data were processed

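The deposited log2 values, 1 per probe set and array, were used as the authors gave them. The submitters' processing notes name limma; how the values were normalized, and on which genome build, is not given in the sources used here. Deposited log2 values at the same rank differed by at most 0.180 between arrays. Arrays carry no read depth, and their number limits the precision. The 19158 probe sets with 1 symbol in the platform annotation entered the tests whatever their level, while 1388 with several symbols and 11775 without a symbol stayed out.

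A 2-group fit set TRIM44 siRNA against negative siRNA. Each reagent with negative siRNA and with the other reagent was compared in a fit of 3 group means (lmFit and eBayes of limma 3.58.1, R 4.3.3; 2-sided, Benjamini-Hochberg over all 19158, threshold 0.05). The fits were tested on simulated data. Where a gene has several probe sets, that of highest mean stands for it. Values are given per array for members that passed and, in each role group, for the member of smallest p in each comparison; other GINS subunits were added to set beside GINS1. In the other lists, genes that passed are named, with some of the 2 of smallest p in each group in the 2-group fit. The members and lists were chosen with earlier results of these data known. Alternatives were other scalings, filters, variance priors, array weights, a replicate block, other models and each array left out.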

Additional observations from a re-analysis of the deposited data

Results flagged for a closer look

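MCM2 on negative array 2 read 10.40, where the other negative arrays read 10.53 to 10.55; the gap divided by the range of the group was 0.830, above Dixon's critical value for a group of 4. It was 1 of 62 groups of 4 arrays examined, and chance alone gives about 5% of groups such a sample.

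When siRNA 7 was tested against siRNA 9 directly in limma, 6 genes passed among the 30 members and the 114 other listed genes measured. Of all probe sets, 2.23% passed in this comparison. The log2 difference was 0.77 for GINS1, -0.73 for WDHD1, -0.59 for E2F7, 0.64 for PLK1, 0.72 for KIF20A and 0.50 for KIF2C. With siRNA 9, GINS1 and the 3 mitosis genes lay below all negative arrays, where 9.23% of all probe sets did. The siRNA 7 arrays of WDHD1 and E2F7 lay below all negative arrays, where 7.99% of all probe sets did. The siRNA 7 arrays of PLK1 and KIF2C also lay above all negative arrays, where 6.38% of all probe sets did. Neither gene was called against negative siRNA with either reagent. All 6 differences rest on 2 arrays of each reagent.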

How the results depend on the processing

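No called difference of a named gene turned its direction under the alternatives run. TRIM44 over both reagents was past the threshold only in part of them: the difference was -0.81 with median centring (limma adjusted p = 0.0804) and -0.81 over all probe sets (adjusted p = 0.442), and from -0.87 to -0.73 with each array left out. With the replicate number as a block it was -0.88 (adjusted p = 0.998). The numbers were not taken to pair the arrays, since not every same-numbered pair correlated above 0.1 in its deviations (0.02 to 0.31). Of the 4 TRIM44 siRNA arrays, 3 correlated best with the negative array of their own number and siRNA 9 array 1 with negative array 4. This is a hint from the data and not from the design. The deviations of the 2 arrays of a reagent mirror each other, so each reagent gives only 1 separate pattern. With this block the calls over all probe sets went from 177 to 44 for siRNA 9 and from 13 to 0 for siRNA 7 (1665 at an unadjusted p under 0.05), and the members called were the same: GINS1 with siRNA 9 and between the reagents. Of the other genes called in the report, E2F7 between the reagents (adjusted p = 0.0529) and ASF1A with siRNA 7 (adjusted p = 0.152) were not called with this block.

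Members called with siRNA 9 were 1 in the report, 0 over all probe sets (6 at an unadjusted p under 0.05), 5 with array weights (CDC6, GINS1, PCNA, FEN1 and CCNE2), and from 0 to 2 with each array left out. Between the reagents they were 1 in the report, 2 after the dimmer probe sets were left out (GINS1 and FEN1), 0 over all probe sets (9 unadjusted), 3 with array weights (GINS1, FEN1 and CCNE2), and from 0 to 2 with each array left out. Without negative array 2 CCNE2 was called beside GINS1 in both comparisons, and without either siRNA 9 array no member was called (4 and 2 unadjusted against negative siRNA, 3 and 4 between the reagents). Where more members were called, more of the probe sets tested were called as well. Between the reagents 428 of 19158 passed in the report and 703 of 9579 after the dimmer probe sets were left out. With array weights 1063 passed, and 1050 did without negative array 2. With siRNA 9, 1067 passed without negative array 2. The few members gained cannot be set apart from these shares. The median difference of the members between the reagents was -0.06 and moved to -0.0212 with median centring. With siRNA 9 that median ran from -0.0028 to 0.0393 with each array left out. The adjusted p of GINS1 with siRNA 9 ran from 0.000362 to 0.221 over the alternatives. Over all probe sets, calls with siRNA 9 ran from 177 in the report to 2082 with array weights and 0 without either siRNA 9 array (1449 and 1543 unadjusted). The cause of these shifts was not tested. No signal over background is given, so the depth of a dim probe set is unknown.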
